A study of Mus musculus with 11 samples.

Results

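The cytosolic ribosomal protein genes were taken from the deposited gene table as the lines whose mouse symbol follows the naming of ribosomal proteins (Rpl or Rps with a number, optionally followed by a, x or y and then l, Rplp0 to Rplp2, and Rpsa), leaving out the Rps6k kinases and every name ending in -ps. This gave 81 of 18756 mouse genes, 49 of the large subunit and 32 of the small subunit, and all 81 passed the filter on low counts. They were followed through RNA sequencing of 11 end-point skin tumours from C57BL/6 mice of an engineered melanoma model. Of these, 2 libraries carried the label GNA11 Q209L (an activated G protein alpha subunit), 5 the label GNA11 Q209L Bap1 KO (the same oncogene with knockout of the deubiquitinase and tumour suppressor Bap1) and 4 the label BRAF V600E Bap1 KO (an activated kinase with the Bap1 knockout). The deposited table marks the knockout libraries as BAP1 F/F and the GNA11 Q209L libraries as WT. The labels and the table give neither the promoters that drive the transgenes and the recombination nor the deleted exons, and they give no age or sex of the mice. Nothing states that each library came from its own mouse, and replicates 1 and 2 of GNA11 Q209L Bap1 KO share an identifier in their titles, so p-values measure only the spread between these samples.

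Ribosomal proteins and ribosomal RNA together form the small subunit, which decodes messenger RNA, and the large subunit, which joins amino acids. The genes are transcribed in nearly all cells, and their messenger RNAs begin with a pyrimidine tract through which growth signals control translation. In mammals most of them have left many processed pseudogenes, nearly identical copies of the messenger RNA inserted elsewhere in the genome, and a few have paralogs that are made mainly in testis or muscle.

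Libraries held 18338082 to 81035135 gene counts. With these totals as library size, 3 counts corresponded to between 0.037 and 0.164 CPM (gene counts scaled to a fixed library total). Bap1 stood at 85.1 and 137 CPM in GNA11 Q209L, between 101 and 170 in GNA11 Q209L Bap1 KO and between 54.5 and 71.3 in BRAF V600E Bap1 KO. The line of the human GNA11 Q209L transgene stood at 6.51 to 125 CPM in the 7 libraries labelled with it and at 0 to 0.0562 CPM in BRAF V600E Bap1 KO, which alone had more than 1 count in the human BRAF line (0.865 to 2.76 CPM). Bap1 counts over the whole gene were not lower with the knockout label under GNA11 Q209L, and they do not check a knockout whose deleted exons are unknown. Genotype names below are therefore labels. A label line at the foot of the deposited table gives Bap1 as NA for BRAF V600E Bap1 KO replicates 2 and 4, whereas the line at its head gives BAP1 F/F. The summed level of 8 melanocyte markers was 65950 to 100100 CPM in the GNA11 Q209L libraries with or without Bap1 KO, and 48.8 to 188 CPM in BRAF V600E Bap1 KO. The BRAF V600E Bap1 KO libraries also differed from each other: replicate 4 had 134000 CPM of 4 salivary gland markers and 5306 CPM of 6 skeletal muscle markers, replicates 3 and 4 had 14080 and 5319 CPM of 7 keratinocyte markers, and replicate 2 had 213 CPM of 5 B and plasma cell markers against 0.491 to 21.3 CPM in the other 10 libraries. The libraries with GNA11 Q209L were not uniform either. Replicates 1 and 2 of GNA11 Q209L had 6285 and 725.8 CPM of macrophage markers and 305.2 and 17.57 CPM of T cell markers. Replicate 1 of GNA11 Q209L Bap1 KO had 1692 CPM of keratinocyte markers, against 1.331 to 7.354 CPM in the rest of its genotype. What part these cell types had in the results on ribosomal protein genes was not tested.

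The line with the symbol Rpl24 carries an Ensembl ID that the GENCODE M21 annotation gives to Zbtb11, a zinc finger gene. It is kept where the naming rule puts it and called the Rpl24 line. Leaving out this line and the 4 paralogs Rpl3l, Rpl36al, Rpl39l and Rps27l gave 76 usual subunits.

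Whether a short read can be placed in a ribosomal protein gene depends on how far its sequence differs from the copies elsewhere. To describe this, each coding sequence of the GENCODE M21 annotation (GRCm38) was divided into overlapping windows of 50 bases, and a window was called unique where no transcript of another gene held the same bases on either strand. The first 50 coding bases of 2 members that are mostly unique and 3 that are not are printed here, 5′ to 3′, because the 5 genes also stand at opposite ends of the measured levels. In each, the run starts at the start codon.
Rps3: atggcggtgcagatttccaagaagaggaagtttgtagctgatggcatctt
Rpl8: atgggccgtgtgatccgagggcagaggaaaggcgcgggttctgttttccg
Rpl9: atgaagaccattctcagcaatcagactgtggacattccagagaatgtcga
Rps27a: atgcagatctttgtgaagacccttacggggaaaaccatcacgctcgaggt
Rpl5: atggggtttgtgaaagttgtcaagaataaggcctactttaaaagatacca
The runs of Rps3 and Rpl8 were found in 0 other genes. The run of Rpl9 was found in 5 other genes, of which 4 are annotated pseudogenes. That of Rps27a was found in 2 and that of Rpl5 in 1, all pseudogenes. Over the whole coding sequence, 91.9% of the windows of Rps3 and 91.3% of those of Rpl8 were unique, against 0% for Rpl9, Rps27a and Rpl5. In all, 77 of the 81 members shared at least 1 window with a pseudogene, and Rpl7a, a large subunit protein, shared windows with 121 of them.

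Recorded levels of the usual subunits spanned more than 3 orders of magnitude, although their proteins are built into the ribosome in nearly equal numbers. Levels between genes are given as mean CPM per coding kilobase over the 11 libraries. Rps3, at the entry of the messenger RNA channel, stood at 1474 CPM per coding kilobase. Rpl8, near the catalytic centre of the large subunit, stood at 1272. Rpl9 stood at 12.02, Rps27a, made as a fusion with ubiquitin, at 10.8, and Rpl5, which binds the smallest ribosomal RNA together with Rpl11, at 7.02. Rpl23a, a protein beside the tunnel exit, was lowest at 0.907 CPM per coding kilobase with 28 pseudogenes that share its windows. The highest value, 2381 for Rpl41, rests on a coding sequence of only 75 bases and takes in reads from the rest of its transcript.

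Levels were higher in members with more unique windows. The 28 usual subunits without a unique window had a median of 11.4 CPM per coding kilobase. The 37 with some unique windows but fewer than 50% had a median of 165, and the 11 with 50% or more had a median of 828 with a range of 614 to 1474. Across the 76 genes Spearman's rho between the unique share and log2 CPM per coding kilobase was 0.857 and Pearson's r 0.725. This is a description: the genes share libraries and are not independent replicates. How the authors' counting treated reads with several matches, and how long the reads were, is not stated in the labels or the table, so the levels of members with few unique windows are uncertain.

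**Figure D1:**
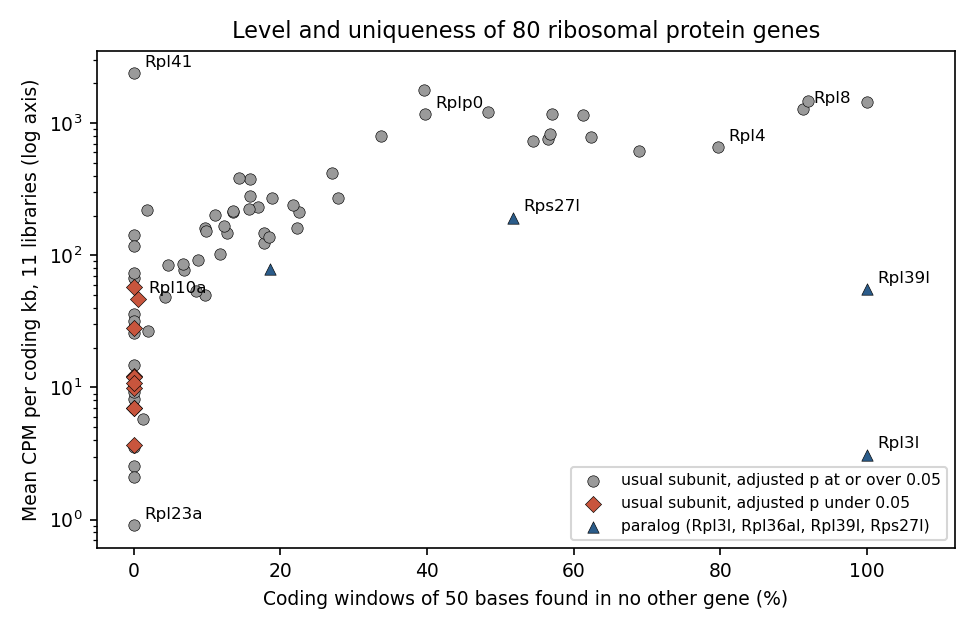
Mean CPM per coding kilobase over 11 libraries (y, log axis) against the percent of 50-base coding windows found in no other gene (x), for 80 genes (all members but the Rpl24 line); diamonds mark usual subunits with an adjusted p under 0.05 in GNA11 Q209L Bap1 KO against BRAF V600E Bap1 KO. The 11 usual subunits with 50% or more unique windows lie between 614 and 1474, and the diamonds other than Rpl10a lie at 0%.

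Ribosomal protein genes took about 1% of all recorded gene counts in most tumours and over 2% in a single one. Because the counting of reads with several matches is not stated, these are shares of recorded counts only. The 28 usual subunits without a unique window took 0.03255 to 0.1038% of a library. The share of all 81 members was 1.105% and 1.03% in GNA11 Q209L. It was 1.127, 1.046, 1.001, 1.324 and 1.391% in GNA11 Q209L Bap1 KO replicates 1 to 5 (1.18 ± 0.172%, SD, n = 5). Replicates 1 to 4 of BRAF V600E Bap1 KO had 1.361, 2.747, 0.9765 and 0.8349% (1.48 ± 0.874%, SD, n = 4). The 3 genotypes overlapped, and BRAF V600E Bap1 KO held both the lowest and the highest library. Without the 10 most abundant other genes of each library, its replicate 4 had 1.069%, and its replicate 3 was the lowest at 1.04%. The widest 95% Wilson interval of a library's share reached 0.0069 percentage points to either side, so the spread lay between libraries and not in counting. Both subunits showed it: in BRAF V600E Bap1 KO the large subunit took 0.493 to 1.48% and the small subunit 0.342 to 1.26%. In bulk tumours, fewer cells of a type and less RNA per cell cannot be told apart.

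**Figure D2:**
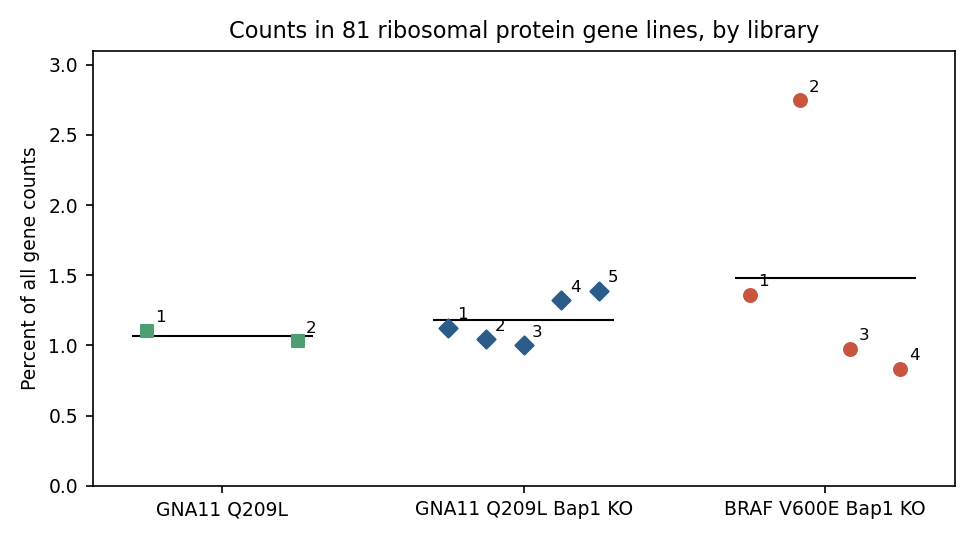
Percent of all gene counts in the 81 ribosomal protein gene lines (y) for each library, by genotype (x); numbers are replicates and lines are means. Of the 11 libraries 10 sit between 0.8349 and 1.391%, and BRAF V600E Bap1 KO replicate 2 sits at 2.747%.

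BRAF V600E Bap1 KO replicate 2 was the highest library for 42 of the 76 usual subunits, GNA11 Q209L Bap1 KO replicate 5 for 15 and BRAF V600E Bap1 KO replicate 1 for 9. The lowest value was most often in GNA11 Q209L replicate 2 (19 genes), BRAF V600E Bap1 KO replicate 3 (18) or BRAF V600E Bap1 KO replicate 4 (15). Lines of the table named as ribosomal protein pseudogenes, 72 in all, took far fewer counts: 0.0276% in BRAF V600E Bap1 KO replicate 2 and between 0.00771 and 0.0135% in the other libraries. Of these lines 45 passed the filter on low counts. In GNA11 Q209L Bap1 KO against BRAF V600E Bap1 KO their median log2 fold change was 0.53, against −0.26 over all genes. Of the 45, 0 had an adjusted p under 0.05 and 1 an unadjusted p under 0.05 (edgeR), beside 41.2% and 51.3% of all genes. The mean share of the 72 lines was lower in GNA11 Q209L Bap1 KO, 0.01204 against 0.01354% with replicate 2 included.

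**Figure D3:**
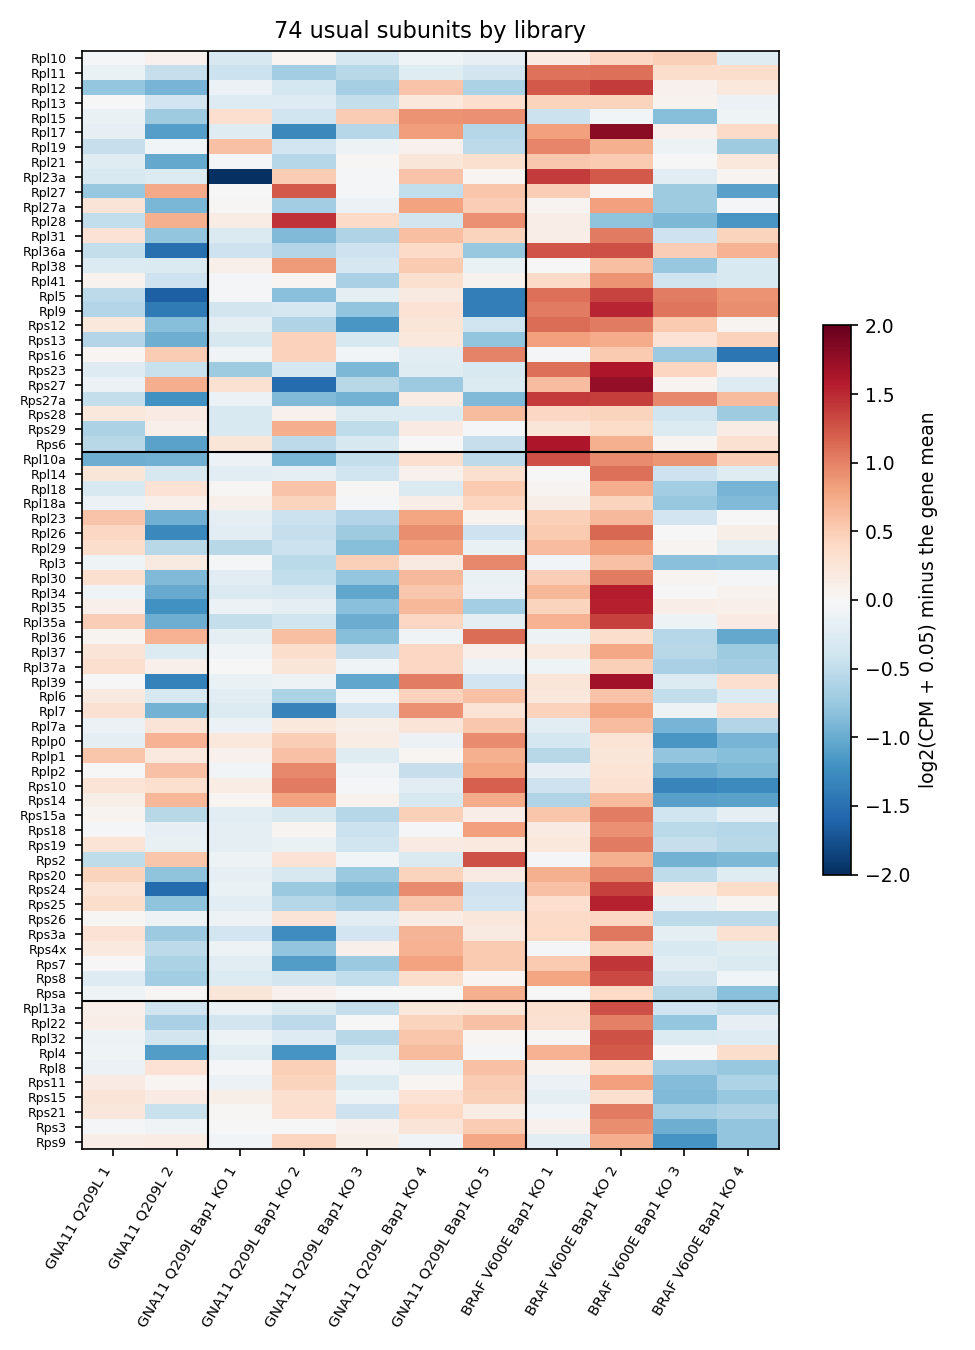
Level of 74 usual subunits (rows, grouped from top to bottom into no unique windows, some, and 50% or more) in 11 libraries (columns), as log2(CPM + 0.05) minus the mean of the gene. BRAF V600E Bap1 KO replicate 2 is above the mean in most rows; replicates 3 and 4 are low in most rows of the lowest block.

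In GNA11 Q209L Bap1 KO against GNA11 Q209L, the comparison that asks what accompanies the Bap1 label under the same oncogene, no ribosomal protein gene passed the threshold (adjusted p under 0.05, edgeR's quasi-likelihood test with Benjamini-Hochberg adjustment over 17350 genes). The count was 0 of 81, beside 0.0288% of all genes tested, 1 member had an unadjusted p under 0.05 (11.4% of all genes did), and DESeq2 called 0 members beside 2.31%. The estimates were above 0 for 61 members and below 0 for 20, with a median log2 fold change of 0.18 against −0.004 over all genes. This median rested on single libraries: it was 0.07 without GNA11 Q209L replicate 2 (0.06 over all genes), 0.07 without GNA11 Q209L Bap1 KO replicate 5 (−0.04), 0.11 without its replicate 4 (−0.008) and 0.42 without GNA11 Q209L replicate 1 (0.11). On simulated counts for this comparison the test recovered 17 of 100 genes changed 4-fold and 61 of 100 changed 16-fold. The changed genes were drawn at random from all genes tested, and for such genes even 4-fold differences were mostly not recovered. Smaller differences were not simulated. Recovery for the members alone was not measured. The libraries of the genotypes did not overlap for Rps3, Rps6, Rpl12 and Rpl10a, 4 members in all, each higher in GNA11 Q209L Bap1 KO (7.58% of all genes did not overlap in this direction), and 0 members were lower without overlap (9.01%). Of the 11 marker lists read in the same libraries, 4 also differed without overlap in their summed level. Proliferation markers (10 genes) had 162 and 264 CPM in GNA11 Q209L against 317 to 840 CPM, and melanocyte markers (8 genes) 65950 and 68140 against 76450 to 100100 CPM. Fibroblast markers (6 genes) had 2833 and 11150 CPM in GNA11 Q209L against 286 to 2189 CPM, and endothelial markers (5 genes) 438 and 821 against 262 to 375 CPM. An unadjusted p under 0.05 was found for 8 of the 10 proliferation, 6 of the 6 fibroblast, 2 of the 5 endothelial and 1 of the 8 melanocyte genes, and 0 of them passed the threshold. What part these cell types had in the values of the members was not tested.

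Abundant members are given library by library. Rps3 stood at 999 and 966 CPM in GNA11 Q209L and at 1005, 1019, 1080, 1209 and 1442 CPM in GNA11 Q209L Bap1 KO, a log2 fold change of 0.23 (SE 0.49). Rpl8 stood at 870 and 1153 CPM against 926, 1317, 899, 850 and 1409 CPM. Its 2 sets of values overlapped, with a log2 fold change of 0.09 (SE 0.41). Rplp0, which anchors the stalk that recruits elongation factors, differed more between the 2 libraries of GNA11 Q209L (897 and 1656 CPM) than the genotype means did (1276 and 1341 CPM). The smallest adjusted p among members was that of Rpl15, a core protein of the large subunit (log2 fold change 0.92, SE 0.39, adjusted p = 0.413, edgeR). Its coding sequence has 0 unique windows.

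The next comparison set GNA11 Q209L Bap1 KO against BRAF V600E Bap1 KO, so that the oncogene differed and the Bap1 label was shared. Here 12 members passed the threshold, 11 of them lower in GNA11 Q209L Bap1 KO (among them Rpl39l, Rps27a, Rpl9, Rpl5, Rps23, Rpl36a, Rpl11, Rpl10a, Rpl12 and the Rpl24 line) and only Rpl15 higher. Among the 12, Rpl39l passed the filter on low counts only through the libraries of BRAF V600E Bap1 KO, where it is high, and so had to differ. The 12 of 81 stand beside 41.2% of all genes tested, with 16.5% higher and 24.7% lower. With total counts as library size, 19 members were lower and 0 higher, beside 10.1% of all genes higher and 33.0% lower. DESeq2 called 3 members higher and 13 lower, beside 18.0% and 25.9%. The median log2 fold change was −0.31 over the members and −0.26 over all genes (−0.70 and −0.64 with total counts). Without BRAF V600E Bap1 KO replicate 2 it was −0.035 over the members and −0.22 over all genes.

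Of the 9 usual subunits that were lower, 8 have no unique coding window. Of the 28 usual subunits without one, 9 were called (Rpl15 higher, 8 lower). Of the 37 with some, 1 was called, Rpl10a, in which 3 of 599 windows are unique. Of the 11 with 50% or more, 0 were called and 0 had an unadjusted p under 0.05 (51.3% of all genes did), and none was called by DESeq2. The medians of the 3 groups were −0.56, −0.22 and 0.17. This division of the calls rested on BRAF V600E Bap1 KO replicate 2. Without it, 5 of the 28 were called, all lower, 6 of the 37 (5 higher, 1 lower) and 2 of the 11, both higher. The medians were then −0.49, 0.16 and 0.60. The groups also differed in level, with medians of 5.77, 82.09 and 677.8 CPM over the 11 libraries, so level and unique share cannot be told apart here. Across the 76 genes in the full fit, Spearman's rho of the log2 fold change was 0.466 with log2 CPM per coding kilobase and 0.349 with the unique share. Pearson's r was 0.503 and 0.303. How level, or counting of reads shared with pseudogenes, bears on these differences was not tested.

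**Figure D4:**
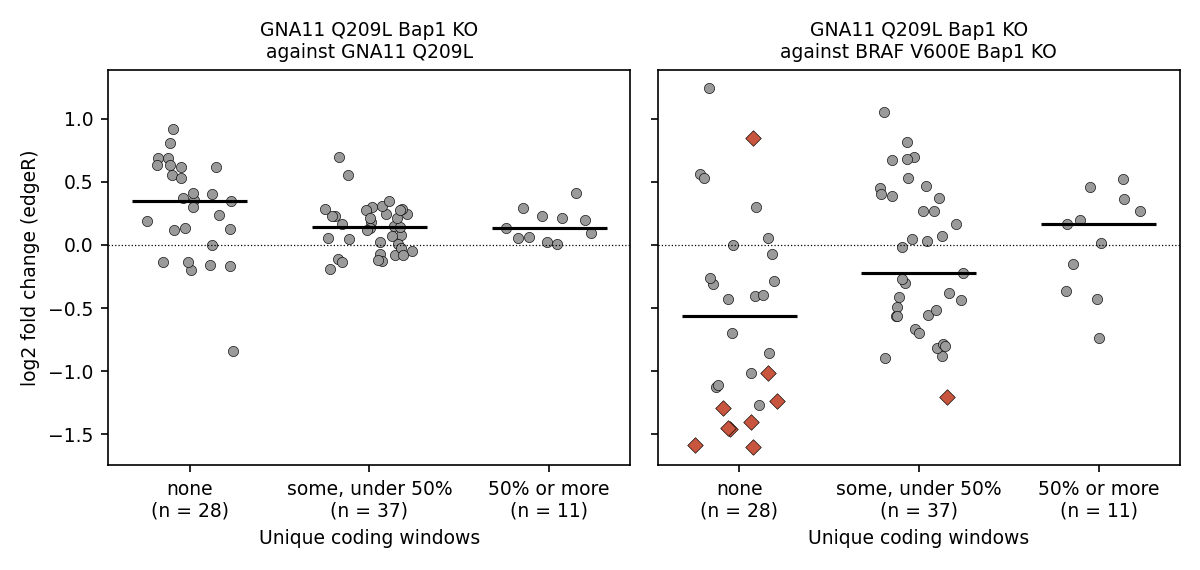
Log2 fold change of the 76 usual subunits in 2 comparisons (panels), by the share of unique coding windows (x); diamonds have an adjusted p under 0.05 and lines are medians. In the left panel no gene passes, and in the right panel 9 of the 28 genes without a unique window and 1 of the other 48 pass, counts that became 5 and 8 without BRAF V600E Bap1 KO replicate 2.

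Of the proteins that carry the smallest ribosomal RNA into the large subunit and bind the p53 regulator Mdm2, both were lower. Neither Rpl5 nor Rpl11 has a unique coding window, so their recorded levels are uncertain. Rpl5 stood at 4.995, 2.82, 4.44, 5.76 and 1.92 CPM in GNA11 Q209L Bap1 KO and at 10.96, 12.95, 10.4 and 9.44 CPM in BRAF V600E Bap1 KO. All 5 libraries of the first genotype were below all 4 of the second, as for 10 members in all (17.2% of all genes did not overlap in this direction). The log2 fold change was −1.46 (SE 0.40, adjusted p = 0.0156, edgeR). Rpl11 stood at 3.53, 2.93, 3.25, 4.05 and 3.72 CPM against 10.3, 10.4, 6.13 and 6.12 CPM, again without overlap, and fell by 1.23 on the log2 scale (SE 0.31, adjusted p = 0.0117, edgeR).

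Of the stalks of the large subunit, Rpl10a and Rpl12 were lower, and the acidic stalk proteins Rplp1 and Rplp2 and their anchor Rplp0 did not pass. Rpl10a, which forms the mobile stalk beside the exit site of transfer RNA, had the highest mean CPM of the lower usual subunits. It stood at 24.1, 13.8, 18.7, 32.9 and 18.0 CPM in GNA11 Q209L Bap1 KO and at 63.9, 50.1, 47.9 and 36.6 CPM in BRAF V600E Bap1 KO. No libraries overlapped, and the log2 fold change was −1.21 (SE 0.27, adjusted p = 0.00736, edgeR). Rpl12, at the base of the stalk that recruits elongation factors, stood at 10.7 ± 4.2 CPM (SD, n = 5) against 21.6 ± 9.69 CPM (n = 4) with overlap, and it passed narrowly (log2 fold change −1.02, adjusted p = 0.0494, edgeR). It stayed past the threshold in 3 of the 9 fits that left out a library of either genotype.

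Other lower subunits had low counts. Rpl9, a large subunit protein, stood at 4.29, 4.37, 3.19, 6.81 and 2.09 CPM against 11.4, 16.1, 11.7 and 10.5 CPM (log2 fold change −1.58, adjusted p = 0.00989, edgeR). Rps27a stood at 3.801, 2.21, 2.11, 4.57 and 2.20 CPM against 10.97, 10.8, 8.08 and 6.38 CPM (log2 fold change −1.60, adjusted p = 0.00900, edgeR). Neither gene's groups overlapped. Rps23, a protein of the decoding centre (0.960 ± 0.191 against 2.63 ± 1.27 CPM), and Rpl36a (2.65 ± 0.941 against 6.49 ± 1.76 CPM) fell by 1.45 and 1.29 on the log2 scale, with SD over 5 and 4 libraries. The Rpl24 line, whose coding windows are all unique as Zbtb11, stood at 17.2 ± 3.09 against 31.3 ± 5.20 CPM.

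Rpl15 was the member that rose. It stood at 40.9, 24.6, 45.8, 60.5 and 61.0 CPM in GNA11 Q209L Bap1 KO and at 23.9, 31.1, 17.9 and 30.6 CPM in BRAF V600E Bap1 KO. Replicate 2 of the first genotype lay within the range of the second. The log2 fold change was 0.85 (SE 0.30, adjusted p = 0.0450, edgeR), and the call held in 1 of the 9 fits that left out a library. The call of Rpl36a held in 6 and that of Rps23 in 7, while the other members lower in the full fit, Rpl12 aside, held in all 9. Rpl39l is among these, but it passed the filter on low counts only through BRAF V600E Bap1 KO and had to differ.

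Abundant members were not called. Rps3 stood at 1151 ± 181 CPM (SD, n = 5) against 1025 ± 652 CPM (n = 4) and Rpl8 at 1080 ± 262 against 840 ± 327 CPM, with adjusted p-values of 0.747 and 0.386 (edgeR). Their log2 fold changes, 0.17 and 0.36, were −0.27 and −0.07 with total counts. Rpl4, which lines the exit tunnel, stood at 695 ± 300 against 1160 ± 430 CPM (log2 fold change −0.74, SE 0.40, adjusted p = 0.158, edgeR). Rpl13a, a surface protein of the large subunit, stood at 632 ± 137 against 852 ± 531 CPM (log2 fold change −0.43, and 0.07 without BRAF V600E Bap1 KO replicate 2). In each, the 2 sets of libraries overlapped.

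These calls rested in part on BRAF V600E Bap1 KO replicate 2. Without it, 15 members passed, 7 of them higher in GNA11 Q209L Bap1 KO and 8 lower, beside 14.0% and 21.5% of all genes, and 8 of the 15 were among the 12 of the full fit. The 7 higher members were the stalk proteins Rplp0 and Rplp1 (log2 fold changes 1.15 and 1.00), Rps10 (1.47), Rps14 (1.23), Rps9 (0.95), Rps15 (0.80) and Rpl7a (0.76), with adjusted p-values of 0.0211 to 0.0434 (edgeR). Of their coding windows between 39.6 and 57.0% are unique, except for Rps10 (15.7%) and Rpl7a (6.68%). Rplp0, for example, stood at 1188, 1439, 1145, 950 and 1982 CPM in GNA11 Q209L Bap1 KO and at 806, 1241, 457 and 539 CPM in BRAF V600E Bap1 KO, where 1241 is replicate 2. The 8 lower members included Rpl39l, Rps27a, Rpl9, Rpl5, Rpl10a, Rpl11 and the Rpl24 line. The replicate also held the most B and plasma cell markers among the 11 libraries and the most proliferation markers among the 4 of its genotype (499 CPM over 10 genes, against 321 to 379). Among these 4 it further had the most macrophage (2123 CPM), T cell (52.58) and red blood cell (226.5) markers and the fewest fibroblast markers (3081). GNA11 Q209L Bap1 KO had 317 to 840 CPM of proliferation markers, with ribosomal protein shares of 1.001 to 1.391%. What part these cell types had in the calls was not tested.

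Leaving out replicates 2 and 4 of BRAF V600E Bap1 KO together, whose Bap1 entry is NA at the foot of the table, left 6 members past the threshold beside 22.0% of all genes. Rpl39l, Rps27a, Rpl10a, Rpl11 and the Rpl24 line were lower and Rpl3l higher. Rpl9 and Rpl5 kept their estimates (−1.48 and −1.43) at adjusted p-values of 0.0575 and 0.0729 (edgeR).

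A fit with the summed counts of the members as library size asks which members differ from that sum, to which abundant members contribute most. In GNA11 Q209L Bap1 KO against GNA11 Q209L, 0 members and 0.0% of all genes passed (edgeR), and 0 members had an unadjusted p under 0.05. In GNA11 Q209L Bap1 KO against BRAF V600E Bap1 KO, 15 members passed, 14 lower and 1 higher, beside 30.4% of all genes (6.93% higher, 23.4% lower). The sum did not stand for a typical member here. Relative to it, the median log2 fold change was −0.46 over the 81 members and −0.53 over all genes. It was −0.79 over the 28 usual subunits without a unique window and 0.125 over the 11 with 50% or more. The largest falls relative to the total among members whose average log2 CPM was 2 or more were those of Rpl39l (−7.14), Rps27a (−1.79), Rpl9 (−1.78) and Rpl5 (−1.64). Of these, Rpl39l had to differ here too, because of how it passed the filter on low counts. Rps10, in the head of the small subunit, was the member that rose relative to the total (log2 fold change 0.96, SE 0.30, adjusted p = 0.0331, edgeR), with 141 ± 64.1 CPM (SD, n = 5) against 67.8 ± 38.02 CPM (n = 4). Its call held in 3 of the 9 fits that left out a library and was lost with the shared identifier summed (adjusted p = 0.0578, edgeR). Leaving out a library moved the count to between 5 and 17.

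In the comparison of GNA11 Q209L against BRAF V600E Bap1 KO the oncogene and the Bap1 label both change, and its libraries are those of the other comparisons. Here 7 members were lower in GNA11 Q209L and 0 higher, beside 15.2% of all genes (9.27% higher, 5.93% lower). They included Rpl9 (log2 fold change −2.11), Rpl5 (−2.09), Rps27a (−1.95), Rpl36a (−1.91), Rpl10a (−1.90) and the Rpl24 line (−1.13). The adjusted p-values ran from 0.0144 to 0.0443 (edgeR). Rpl10a stood at 13.2 and 13.3 CPM in GNA11 Q209L, below all 4 BRAF V600E Bap1 KO libraries, as were 18 members in all (22.9% of all genes did not overlap in this direction). Without GNA11 Q209L replicate 1, without GNA11 Q209L replicate 2, and with the 2 genotypes fitted alone, 0 members were called by edgeR, beside 5.91, 1.45 and 2.45% of all genes. Without BRAF V600E Bap1 KO replicate 2 there were 2 (10.2%), and without its replicates 2 and 4 there was 1 (5.16%). DESeq2 called 14 (28.7%). The full fit had 14 of 81 members at an unadjusted p under 0.05, beside 36.5% of all genes.

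Of the 4 paralogs among the members, Rpl39l is described first. Its parent Rpl39 lines the tunnel through which the new protein leaves, and Rpl39l is known from testis. The first 150 coding bases of both, and of Rpl36a with its paralog Rpl36al, are printed here because they show how a paralog is told from its parent: capitals mark the positions at which the 2 sequences of a pair differ (5′ to 3′ from the start codon, GENCODE M21).
Rpl39: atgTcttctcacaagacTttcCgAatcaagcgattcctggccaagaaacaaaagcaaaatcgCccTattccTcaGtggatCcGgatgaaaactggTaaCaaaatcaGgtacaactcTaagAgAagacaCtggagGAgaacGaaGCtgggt
Rpl39l: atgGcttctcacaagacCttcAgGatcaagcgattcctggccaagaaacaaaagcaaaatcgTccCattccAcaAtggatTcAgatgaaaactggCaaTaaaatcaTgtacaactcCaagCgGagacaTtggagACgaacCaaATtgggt
Rpl36a: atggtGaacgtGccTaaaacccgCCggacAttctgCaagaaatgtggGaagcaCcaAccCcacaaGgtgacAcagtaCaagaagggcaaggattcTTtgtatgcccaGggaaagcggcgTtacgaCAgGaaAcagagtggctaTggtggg
Rpl36al: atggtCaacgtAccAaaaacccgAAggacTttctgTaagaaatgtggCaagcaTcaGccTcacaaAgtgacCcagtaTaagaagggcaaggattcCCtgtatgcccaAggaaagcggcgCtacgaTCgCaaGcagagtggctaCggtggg
Over the whole coding sequence Rpl39 and Rpl39l differ at 23 of 153 bases (85.0% identity), 16 of them at the last base of a codon, and the longest identical run is 38 bases. Rpl36a and Rpl36al differ at 39 of 318 bases (87.7% identity), 35 of them there, and the longest run is 24 bases. No run of 50 bases is thus shared within either pair. All coding windows of Rpl39l were unique, as were 13.5% of those of Rpl39.

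Rpl39l stood at 1.26 and 0 CPM in GNA11 Q209L, at 0.271, 0, 0, 0.190 and 0.173 CPM in GNA11 Q209L Bap1 KO, and at 1.60, 75.3, 6.09 and 8.79 CPM in BRAF V600E Bap1 KO. These are 48 and 0 counts, then 5, 0, 0, 4 and 10 counts, then 142, 2210, 175 and 201 counts. A library with 0 counts allows up to 3 counts, at most 0.164 CPM in any library with total counts as library size. Every BRAF V600E Bap1 KO library was above all 7 with GNA11 Q209L, and replicate 2 was far above the other 3. The filter on low counts asked for 0.443 CPM in 2 libraries, which Rpl39l reached in 4 libraries of BRAF V600E Bap1 KO, 1 of GNA11 Q209L and 0 of GNA11 Q209L Bap1 KO. A gene that passed in this way had to differ, so the fitted values are a description. The log2 fold change of GNA11 Q209L Bap1 KO against BRAF V600E Bap1 KO was −7.41 (SE 1.56, adjusted p = 0.00547, edgeR) and −5.36 without replicate 2 (adjusted p = 0.0133, edgeR). Rpl39 itself stood at 28.4 ± 16.5 CPM (SD, n = 5) against 45.1 ± 30.01 CPM (n = 4) with overlap. The log2 ratio of Rpl39l to Rpl39 averaged −8.03 and −2.13, a difference of −5.90 (exact two-sided permutation p = 0.00794, the smallest that 5 against 4 libraries allow, adjusted p = 0.0595 over 15 tests).

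Rpl36al overlapped between the genotypes, whereas its parent Rpl36a, a protein at the exit site of transfer RNA, was lower in GNA11 Q209L Bap1 KO than in every BRAF V600E Bap1 KO library. The paralog averaged 22.3 ± 10.4 CPM (SD, n = 5) under GNA11 Q209L Bap1 KO and 28.3 ± 2.36 CPM (n = 4) under BRAF V600E Bap1 KO. The log2 ratio of Rpl36al to Rpl36a was 3.79 and 3.90 in GNA11 Q209L, 2.97, 2.66, 2.83, 3.23 and 3.42 in GNA11 Q209L Bap1 KO and 1.91, 1.87, 2.42 and 2.44 in BRAF V600E Bap1 KO. The 3 genotypes did not overlap in this ratio. GNA11 Q209L Bap1 KO differed by 0.86 from BRAF V600E Bap1 KO (exact permutation p = 0.00794, adjusted p = 0.0595) and by −0.82 from GNA11 Q209L (exact permutation p = 0.0476, the smallest that 5 against 2 libraries allow, adjusted p = 0.167). Of the 269 windows of Rpl36a 0 are unique.

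In Rpl3l, the skeletal and heart muscle paralog of Rpl3, a single library stood apart. BRAF V600E Bap1 KO replicate 4 had 33.1 CPM, against 0.214, 0.852 and 0.104 CPM in replicates 1 to 3, 0.523 and 0.624 CPM in GNA11 Q209L and 0.270 to 2.21 CPM in GNA11 Q209L Bap1 KO. The same library had the most skeletal muscle markers, 5306 CPM over 6 genes against 8.09 to 181 in the other 10 libraries. The log2 fold change of GNA11 Q209L Bap1 KO against BRAF V600E Bap1 KO was −2.79 (adjusted p = 0.126, edgeR), and it was 1.66 without replicate 4 (adjusted p = 0.137). Without replicates 2 and 4 it was 2.87 (adjusted p = 0.0464).

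Rps27l, a paralog of Rps27 that p53 is known to induce, stood at 44.2 ± 13.8 CPM (SD, n = 5) under the Bap1 KO label with GNA11 Q209L and at 53.5 ± 20.4 CPM (n = 4) under that with BRAF V600E, with overlap. It was recorded far above its parent Rps27 (0.533 ± 0.259 and 1.29 ± 0.919 CPM), in a pair with coding sequences of 252 bases each. Of the coding windows of Rps27l 51.7% are unique and of those of Rps27 0. Rpl22l1, which lies outside the naming rule, stood at 19.2 ± 10.8 against 38.2 ± 18.3 CPM. The ratio of Rpl22l1 to Rpl22 differed by −0.96 on the log2 scale (exact permutation p = 0.0476, adjusted p = 0.167). None of the 15 ratio tests passed an adjusted p of 0.05, and 4 had an unadjusted p under 0.05, among them that of Rpl39l, which is a description.

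**Figure D5:**
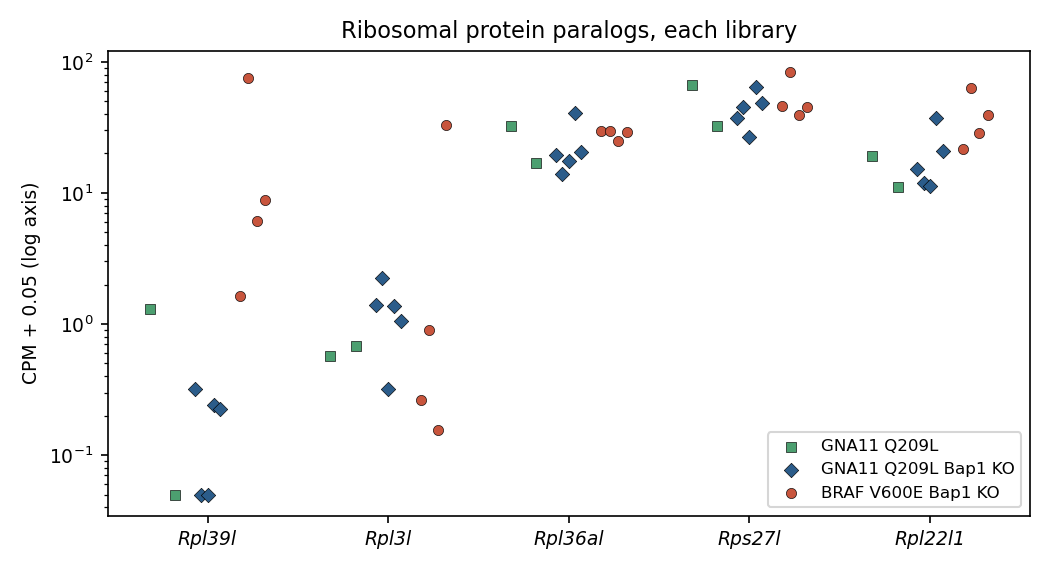
Level of 5 ribosomal protein paralogs in each library, as CPM + 0.05 (y, log axis), by genotype (symbols). For Rpl39l all 4 BRAF V600E Bap1 KO libraries lie above the 7 with GNA11 Q209L, and for Rpl3l a single library lies at 33.1 CPM.

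Other genes of ribosome production and translation were read from the same fit. For the Bap1 label under GNA11 Q209L none of these lists had a member past the threshold, and 5 genes had an unadjusted p under 0.05: 3 of 40 in ribosome biogenesis, 1 of 16 regulators and 1 of 75 mitochondrial ribosomal proteins, each a smaller share than the 11.4% of all genes. The list medians ran from −0.11 for mitochondrial ribosomal proteins to 0.23 for initiation factors. Nop56, a core protein of the particles that methylate ribosomal RNA, averaged 21.4 CPM without and 43.2 ± 11.4 CPM (SD, n = 5) with the Bap1 KO label (log2 fold change 1.01, adjusted p = 0.354, edgeR). Mlst8, a subunit of the mTOR complexes, stood at 12.4 and 26.3 ± 5.08 CPM (log2 fold change 1.08, adjusted p = 0.249, edgeR).

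Between the oncogenes, GNA11 Q209L Bap1 KO against BRAF V600E Bap1 KO, 4 of these lists had members past the threshold in both directions. These counts depended on the scaling, so the counts with the summed member counts as library size are given beside them. Of all genes 16.5% were higher and 24.7% lower, or 6.93% and 23.4% relative to the member total. The ribosome biogenesis list had 5 of 40 higher and 7 lower, with a median log2 fold change of −0.06, and 1 higher and 4 lower relative to the member total. Polr1b, a core subunit of RNA polymerase I, rose from 24.2 ± 6.43 CPM (SD, n = 4) to 66.3 ± 20.4 CPM (n = 5), by 1.45 on the log2 scale (adjusted p = 0.00406, edgeR). Riok1, a kinase of small subunit maturation, fell from 28.4 ± 5.19 to 7.74 ± 2.95 CPM (log2 fold change −1.87, adjusted p = 0.00411, edgeR). For both the genotypes did not overlap. Bop1, a large subunit processing factor, rose by 1.78 on the log2 scale with overlap.

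Translation factors whose messenger RNAs also start with a pyrimidine tract had 4 of 16 higher and 2 lower (1 and 2 relative to the member total). Eef2, which moves the ribosome along the messenger RNA, was named after its values were seen because of its level. It rose from 2721 ± 1330 CPM (SD, n = 4) to 9971 ± 4017 CPM (n = 5), by 1.87 on the log2 scale (adjusted p = 0.0232, edgeR), without overlap. Eif3f rose from 264 ± 63.6 to 589 ± 202 CPM (log2 fold change 1.16, adjusted p = 0.0193, edgeR), and Btf3 fell from 66.4 ± 22.9 to 27.3 ± 4.93 CPM (−1.28, adjusted p = 0.00471). Initiation factors had 5 of 21 higher and 0 lower, but 0 in either direction relative to the member total: Eif3b rose from 199 ± 66.2 to 572 ± 166 CPM (1.52, adjusted p = 0.00919, edgeR), beside Eif3c, Eif3d, Eif2b5 and Eif4g1. Regulators had 4 of 16 higher and 1 lower (0 and 1 relative to the member total). Tsc2, an inhibitor of mTOR signalling, rose from 82.2 ± 23.6 to 204 ± 69.7 CPM (1.31, adjusted p = 0.0135, edgeR), and Eif4ebp2, a repressor of the cap-binding factor, rose by 1.10.

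Of the 5 ribosomal proteins outside the naming rule, Gnb2l1, the scaffold protein of the small subunit, was higher (3125 ± 895 against 1248 ± 713 CPM, log2 fold change 1.32, adjusted p = 0.0392, edgeR), and 0 were lower. Its libraries overlapped. Mitochondrial ribosomal proteins had 9 of 75 higher and 6 lower, and 0 higher and 5 lower relative to the member total. The smallest p-values were those of Mrps30 (−1.29) and Mrpl32 (−1.55), which were lower, and Mrpl16 (0.75), which was higher. The share of members called in either direction was below the 41.2% of all genes in each of these lists. Lower members alone stayed below the 24.7% of all genes in each. Higher members alone exceeded 16.5% among initiation factors, translation factors with a pyrimidine tract, regulators and the proteins outside the naming rule. Relative to the member total, only the last of these, with 1 of 5, exceeded the 6.93% of all genes.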

How the data were processed

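RNA was sequenced from 11 mouse skin tumours. The deposited table gives estimated counts per gene, whole numbers in every gene line. Per the submitters' processing notes, STAR and the mouse build mm9 were used. The counting program, strand and read length are not stated there or in the labels. From these the ribosomal protein lines were taken by symbol. Their members and the other lists were chosen with earlier results of these data known. Before testing, 6 transgene lines were left out and 7 repeated identical lines dropped. The deposited expected counts were tested with edgeR 4.0.16 (quasi-likelihood, TMM scaling, filterByExpr by genotype, all 11 libraries in the fit, Benjamini-Hochberg adjustment over 17350 genes, threshold 0.05) in R 4.3.3, with limma 3.58.1. CPM values are scaled by TMM, and shares use total counts. A further fit used the summed counts of the members as library size. Log2 ratios of paralog to parent, with 0.5 counts added, were compared by exact two-sided permutation tests (scipy 1.17.1, Python 3.11.15). Pairs were tested where the paralog had a mean of at least 0.5 CPM over the 11 libraries. DESeq2 1.42.0, total count scaling, no filter, the 2 genotypes alone, the 2 libraries with a shared identifier summed and leaving out each library were alternatives. Leaving out the Rpl24 line, or BRAF V600E Bap1 KO replicates 2 and 4 together, was chosen after seeing the data. Totals of 18338082 to 81035135 counts set the precision, and intervals (Wilson, 95%) and the limit of 3 counts cover counting error only. The procedure was tested on simulated data.

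Genes were named by rule: the 6 most abundant members, all called members up to 12 in a comparison (3 in each direction in GNA11 Q209L against BRAF V600E Bap1 KO), the 4 largest changes in each direction relative to the member total, the paralogs with their parents, and up to 3 genes of each other list by p. Others, among them the members called when a library was left out, the members shown by sequence or by level per coding kilobase, and the remaining names given for lists, were named after their values were seen. Windows of 50 bases were compared with the GENCODE M21 transcripts by exact match, and genes that overlap a member at its own locus were not counted. Some members enter the counts, medians and fits and are not reported here by name. No coordinates are given, because that annotation is on GRCm38.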

Additional observations from a re-analysis of the deposited data

Results flagged for a closer look

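Of 54 sets of 4 or 5 libraries searched, 9 had a library farther from the others than the 95% limit of Dixon's gap test, which chance exceeds in about 1 in 20 sets. Sets of the same libraries are not independent of each other.

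In GNA11 Q209L Bap1 KO, replicate 4 stood above the other 4 libraries for Rpl36a (4.285 CPM), for its paralog Rpl36al (40.32 CPM) and for the tunnel protein Rpl39 (56.51 CPM).

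In BRAF V600E Bap1 KO, replicate 2 stood above the other 3 libraries for Rpl39l (75.31 CPM), for Rps27l (83.73 CPM) and for the share of counts in pseudogene lines (0.02764%). Replicate 4 stood above for Rpl3l (33.1 CPM) and replicate 1 for the Rpl24 line (39.1 CPM). Replicate 3 stood below the others for Rpl36al (24.79 CPM).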

How the results depend on the processing

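The count of 0 members in GNA11 Q209L Bap1 KO against GNA11 Q209L was the same under every alternative run, DESeq2 included. In GNA11 Q209L Bap1 KO against BRAF V600E Bap1 KO the 12 calls became 19 with total count scaling, 6 without BRAF V600E Bap1 KO replicates 2 and 4, and 9 to 16 when single libraries were left out. In GNA11 Q209L against BRAF V600E Bap1 KO the 7 calls became 14 with DESeq2, 0 with the 2 genotypes alone, 1 without BRAF V600E Bap1 KO replicates 2 and 4, and 0 to 7 when single libraries were left out. Relative to the member total, the 15 calls became 6 with the shared identifier summed and 5 to 17 when single libraries were left out. Rpl3l reversed from −2.79 to 2.87 on the log2 scale without BRAF V600E Bap1 KO replicates 2 and 4. The mean share of 1.067% in GNA11 Q209L became 1.225% without the 10 most abundant other genes and 1.332% with the ribosomal proteins outside the naming rule, which brought GNA11 Q209L Bap1 KO from 1.178 to 1.47%. Apart from fewer samples or a changed gene set, the cause was not tested. Of the values of single genes and ratios, 583 stayed on their side of the threshold, 62 lost and 3 gained it, and 1 reversed past it. Of the 583, 23 changed sign without being called in either fit, such as Rps3 and Rpl8 with total counts, Rpl13a without BRAF V600E Bap1 KO replicate 2 and Rpl3l without its replicate 4. The replicate numbers used here follow the order of the samples, because the labels give none. They pair no libraries between genotypes, so no paired analysis was possible. Members under 1 CPM, such as Rpl23a and Rps27, are limited by depth, since 3 counts correspond to as much as 0.164 CPM with total counts as library size.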
